A study of Mus musculus with 30 samples.

Results

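Resting regulatory T cells of MOC1 tumours were 1428 of the 11722 T cells in the 3 MOC1 single-cell RNA libraries. MOC1 is a mouse oral squamous carcinoma line that forms tumours in C57BL/6J mice. The cells were chosen by measured values: at least 300 detected genes, at most 10% mitochondrial transcripts, at least 1 UMI of Cd3e, Cd3d or Cd3g, at least 1 UMI of Foxp3, and none of Cd8a, Cd8b1 or Mki67. A UMI (unique molecular identifier) counts 1 captured transcript. Of the chosen cells, 999 came from tumours of mice given an isotype control antibody, 388 from mice given anti-PD-1 and 41 from mice given anti-CTLA-4. Antibodies were injected into the peritoneum on days 3, 6 and 9 after the tumour cells, per the labels. Each treatment has 1 RNA library and 1 T cell receptor library. The labels give no number of mice. The cells of each library carry 1 of 4 hashtags, antibody-borne barcodes that mark cells before pooling, and the labels do not say what the 4 tags mark. Values by hashtag therefore show the spread within a library, and no p-value is given between treatments.

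Regulatory T cells are CD4 T cells that restrain other immune cells, and the transcription factor Foxp3 maintains their programme. They carry the high-affinity chain of the interleukin 2 receptor (Il2ra), with which they take up interleukin 2, and much CTLA-4, an inhibitory receptor that competes with CD28 for its ligands on antigen-presenting cells. In tumours many of them are activated and show the costimulatory receptor 4-1BB (Tnfrsf9) and the chemokine receptor Ccr8. Antibodies to CTLA-4 can bind these cells themselves, since they display their target.

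The 3 libraries held 28466596, 24040712 and 24728203 UMIs over 12709 barcodes, of which 12043 passed the filters. The chosen cells supplied 5760316 UMIs with isotype, 2021013 under PD-1 blockade and 216174 under CTLA-4 blockade, at medians of 4617, 4166.5 and 4715 UMIs per cell. One UMI was thus worth 0.174, 0.495 and 4.63 CPM (UMIs of a gene per 1000000 UMIs of the summed cells), so levels with anti-CTLA-4 are coarse. Between 30 and 35 cell barcodes occurred in both of any pair of libraries, and 1 of them was a chosen cell in both.

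The label held against markers that the selection did not use. With isotype, Il2ra stood at 878 CPM against 205 CPM in Foxp3-negative CD4 T cells, which are T cells with a Cd4 UMI and none of Foxp3, Cd8a, Cd8b1 or Mki67. Tnfrsf9 stood at 1975 against 618 CPM, and Ikzf2, which encodes Helios, a transcription factor of regulatory T cells, at 520 against 145 CPM. Cd4 itself was not asked for, and 58.8, 57.7 and 68.3% of the chosen cells had a UMI of it. Markers of CD8 T and NK cells other than the excluded genes summed to 36.8, 33.65 and 32.38 CPM in the 3 libraries, those of B and plasma cells to 17.36, 15.34 and 18.5 CPM, and those of macrophages and monocytes to 28.12, 18.8 and 4.63 CPM. Markers of gamma-delta T cells had the highest of these sums with isotype, 60.93 CPM (16.49 to 134.8 CPM by hashtag). They stood at 3.46 CPM with anti-PD-1 (0 to 8.06 CPM) and at 4.63 CPM with anti-CTLA-4 (0 to 15.57 CPM), without overlap with isotype. Carcinoma markers summed to 48.26, 47.5 and 60.14 CPM and those of fibroblasts and endothelium to 35.41, 35.13 and 41.63 CPM. The word resting means here only that no Mki67 UMI was seen. Top2a, another gene of dividing cells, stood at 31.4 CPM in the chosen isotype cells and at 339.5 CPM in the 201 Foxp3 cells with Mki67.

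The lower edge of the selection lies at 1 Foxp3 UMI, and 29.8, 24.7 and 29.3% of the chosen cells had exactly 1. With isotype, those 298 cells had a median of 3109.5 UMIs and the 701 cells with more Foxp3 a median of 5469. Il2ra stood at 669 CPM in cells with 1 Foxp3 UMI, at 930 CPM in cells with more, and at 205 CPM in Foxp3-negative CD4 T cells just outside the edge. Ctla4 stood at 2247, 2337 and 845 CPM in the same order. In both genes the isotype cells at the edge lay nearer to the deeper Foxp3 cells than to the Foxp3-negative cells. The pattern did not extend clearly to Il2ra in the treated libraries. With anti-PD-1 it stood at 477, 793 and 152 CPM in the same order, about midway. With anti-CTLA-4, where 12 cells had 1 Foxp3 UMI, Il2ra stood at 146, 470 and 68.3 CPM and Tnfrsf9 at 562, 1784 and 111 CPM. Both lay nearer to the Foxp3-negative cells, as did Tnfrsf18 at 541, 1077 and 380 CPM. Ikzf2, at 666, 535 and 20 CPM, and Ctla4, at 2289, 2694 and 702 CPM, lay nearer to the deeper Foxp3 cells. Outside the other edge, 434, 244 and 86 Foxp3 cells with CD8 UMIs were left out, whose median depth was 10134, 10444 and 10542 UMIs.

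The share of resting regulatory T cells among T cells was 21.99% in the isotype library (999 of 4542, exact 95% binomial interval 20.8 to 23.23%). In the anti-PD-1 library it was 10.88% (388 of 3565, 9.88 to 11.95%). In the anti-CTLA-4 library it was 1.134% (41 of 3615, 0.815 to 1.536%). Across the 4 hashtags the share ran from 20.18 to 25.36% with isotype, from 7.875 to 16.94% under PD-1 blockade and from 0.65 to 1.57% under CTLA-4 blockade. The hashtags of the 3 libraries did not overlap in this measure, and both treated libraries lay below the isotype library. The intervals cover counting error within 1 library each and not the spread between mice.

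Against CD4 cells alone the order was the same. Resting regulatory T cells made up 51.52% of 1939 cells of the CD4 compartment with isotype, 35.63% of 1089 under PD-1 blockade and 5.55% of 739 under CTLA-4 blockade; the compartment joins all Foxp3 cells without CD8 UMIs and Foxp3-negative CD4 T cells, the cycling cells included. Foxp3-negative CD4 T cells were 15.17, 16.89 and 17.93% of T cells, a narrower span than that of the regulatory cells. CD8 T cells were 18.34, 40.42 and 59.53%. A share falls both when its cells are fewer and when other cells are more, and the 2 cannot be told apart without cell numbers per tumour. Cycling cells, with a Mki67 UMI, were 16.75% of Foxp3 cells without CD8 UMIs with isotype, 12.42% under PD-1 blockade and 3 of 44 (6.82%, interval 1.43 to 18.66%) under CTLA-4 blockade. Their hashtag ranges, 10.54 to 24.32%, 9.21 to 16.16% and 0 to 12.5%, overlapped.

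The same selection in the other tumour models gave shares of T cells in the same order. In MOC1E1, a line related to MOC1 by its name in the labels, the shares were 15.73% (166 of 1055) with isotype, 12.18% (256 of 2101) under PD-1 blockade and 1.53% (32 of 2097) under CTLA-4 blockade. In MOC22 they were 3.897% (107 of 2746) with isotype and 2.34% (64 of 2738) with anti-PD-1. Within the CD4 compartment, the MOC22 share was instead higher with anti-PD-1, 33.51 against 18.10%.

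**Figure D1:**
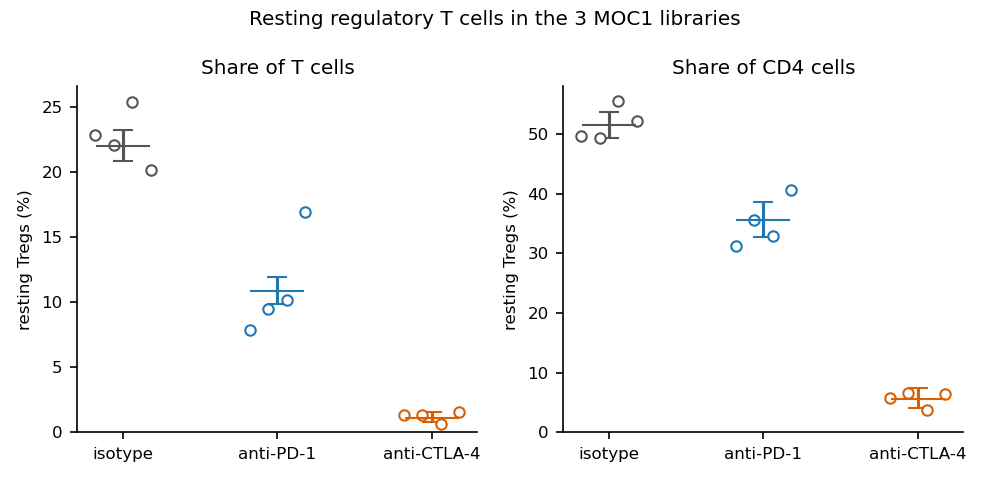
Share of resting regulatory T cells among T cells (left) and among cells of the CD4 compartment (right), in percent, in the 3 libraries, from left isotype, PD-1 blockade and CTLA-4 blockade of MOC1. Horizontal marks with bars are library values with exact 95% binomial intervals and open circles are the 4 hashtags; among T cells the isotype hashtags lie at 20.18 to 25.36% and the anti-CTLA-4 hashtags at 0.65 to 1.57%.

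Against Foxp3-negative CD4 T cells of the same tumours, resting regulatory T cells carried more transcripts of the regulatory programme and fewer of the helper cytokines. UMIs were summed per library and cell group and compared with edgeR's quasi-likelihood test with the library as a block. Of 9258 genes tested, 576 (6.22%) were higher and 558 (6.03%) lower at a Benjamini-Hochberg adjusted p of 0.05 or less, and the median log2 fold over all genes was -0.02. The 3 libraries are the replicates, and each had another treatment. Foxp3 and the other genes of the selection were not counted.

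Of 16 tested genes of regulatory T cell identity, 11 were higher and 3 lower, with a median log2 fold of 1.285. Il2ra had a log2 fold of 2.18 ± 0.11 (SE, 3 libraries, edgeR adjusted p = 1.3e-06). Its levels were 878 against 205 CPM with isotype, 731 against 152 CPM under PD-1 blockade and 398 against 68.3 CPM under CTLA-4 blockade. Ctla4 had a log2 fold of 1.45 ± 0.10 (edgeR adjusted p = 6.8e-06), with 2319 against 845 CPM, 2801 against 1116 CPM and 2604 against 702 CPM. Both genes were higher in regulatory T cells in every library. Ikzf2 had a log2 fold of 2.74 ± 0.36 (edgeR adjusted p = 5.6e-04) and Ikzf4, which encodes the related factor Eos, 2.29 ± 0.23. Lrrc32, which encodes GARP, the surface anchor of latent TGF-beta, had 3.09 ± 0.42, and Izumo1r, which encodes folate receptor 4, 2.01 ± 0.25. The 3 lower genes were Nrp1 (-0.86), which encodes neuropilin 1, Rgs1 (-0.48), a regulator of G protein signals, and Il1r2 (-0.46), the decoy receptor of interleukin 1.

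Genes of activated regulatory T cells in tumours were likewise higher, 14 of 19 tested and none lower, with a median of 0.85. Tnfrsf9 had a log2 fold of 2.41 ± 0.27 (edgeR adjusted p = 2.3e-04) and Klrg1, a lectin-like receptor of differentiated lymphocytes, 3.06 ± 0.37. Tnfrsf4, which encodes the costimulatory receptor OX40, had 1.36 ± 0.07 and stood at 2689 against 1006 CPM with isotype. Ccr8 did not pass, at 0.33 ± 0.15 (edgeR adjusted p = 0.226). With anti-CTLA-4 it stood at 333 CPM in regulatory and 381 CPM in Foxp3-negative cells. Among mediators of suppression, 8 of 14 tested genes were higher and 1 lower. Gzmb, which encodes the protease granzyme B, had a log2 fold of 3.41 ± 0.61 (edgeR adjusted p = 0.00358) and stood at 1067 against 233 CPM with isotype. Its level with anti-CTLA-4, 1670 against 12.7 CPM, came from 1 cell for 320 of 361 UMIs. Il10, the gene of the suppressive cytokine interleukin 10, had 1.32 ± 0.26. Areg (0.38), Tgfb1 (-0.41) and Lag3 (0.27) did not pass.

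The gene with the largest log2 fold among those named was Il1rn, which encodes the antagonist of the interleukin 1 receptor, at 3.56 ± 0.21 (edgeR adjusted p = 2.9e-06). It stood at 95.3 against 9.09 CPM with isotype and at 109 against 6.71 CPM with anti-PD-1. In the third library, that of anti-CTLA-4, it was at 0 UMIs in regulatory T cells and at 1 UMI in Foxp3-negative cells. Slc16a3, a lactate transporter gene, had 2.29 ± 0.13, and Itgae, the alpha chain of an integrin that binds E-cadherin, 2.34 ± 0.39. Rln3, a gene of the relaxin family, had 3.36 ± 0.29, and Dgat2, an enzyme of triglyceride synthesis, 2.94 ± 0.26. Interferon gamma-induced genes were higher in 14 of 22 cases and lower in none, with a median of 0.66. Cd74, which encodes the chaperone of MHC class II molecules, had 1.78 ± 0.23, while H2-Aa and H2-Eb1 of the class II molecule itself did not pass (0.63 and 0.61).

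Of 19 tested cytokine genes 16 were lower and 2 higher, with a median of -2.68. Csf2, which encodes GM-CSF, had a log2 fold of -5.32 ± 0.47 (edgeR adjusted p = 4.9e-05). Il2, the gene of interleukin 2, had -4.16 ± 0.30, Ifng, the gene of interferon gamma, -3.02 ± 0.32, and Il13, the gene of interleukin 13, -2.98 ± 0.34. Ccl1, the gene of a ligand of Ccr8, had -4.41 ± 0.46, but in the anti-CTLA-4 library it stood higher in regulatory T cells, at 46.3 CPM (10 UMIs) against 23.8 CPM. Ligands of the TNF superfamily went both ways. Ltb, the gene of lymphotoxin beta, was higher at 0.68 ± 0.08 (edgeR adjusted p = 2.9e-04), with 1060.5 against 650.7 CPM with isotype. Tnfsf8 (CD30 ligand) had -2.99 ± 0.16, Tnfsf11 (RANK ligand) -2.95 ± 0.15 and Cd40lg (CD40 ligand) -2.28 ± 0.14. Tcf7, a transcription factor gene of naive and memory T cells, had -2.17 ± 0.16 (edgeR adjusted p = 1.6e-05), and Pdcd1, the gene of PD-1, -1.23 ± 0.17. Other named genes on this side were Igfbp7 (-4.30), Gpm6b (-3.29), Tbc1d4 (-2.73), Klrc1 (-2.62), Lgals7 (-2.35) and Nmrk1 (-2.33). Effector and cytotoxic genes were lower in 11 of 21 cases and higher in 2, with a median of -0.77.

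Other lists split in both directions. Over all tested genes, 6.22% were higher and 6.03% lower. Of 9 tested costimulatory receptor genes 6 were higher and 2 lower, with a median of 0.99, and Tnfrsf18 had a log2 fold of 1.12 ± 0.09. The inhibitory receptor list also holds Cd274 and Pdcd1lg2, genes of PD-1 ligands. Of its 14 tested genes 4 were higher and 4 lower, Ctla4 and Tigit (0.71) among the first and Pdcd1 among the second. Of 18 tested genes of central and naive T cells 1 was higher and 7 were lower, and Ccr7, a lymph node homing receptor gene, did not pass (0.20). Genes of T cell receptor signalling were lower in 6 of 16 cases and higher in 1. Glycolysis genes were higher in 5 of 15 cases and lower in 1. Among markers of other cell types, Epcam, an epithelial gene, had 2.75 ± 0.37 and stood at 39.9 against 9.41 CPM with isotype, and Cd79b, a B cell gene, had 3.32 and stood at 16.8 against 1.57 CPM. The part of RNA from such cells was not tested.

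The level of regulatory T cell genes in the comparison cells themselves differed between libraries. Ikzf2 stood at 145 CPM in Foxp3-negative CD4 T cells with isotype, at 86.5 CPM under PD-1 blockade and at 20 CPM under CTLA-4 blockade, while resting regulatory T cells held 520, 556 and 564 CPM. Gzmb stood at 233, 220 and 12.7 CPM in the comparison cells. Regulatory T cells without a captured Foxp3 transcript would be counted among the comparison cells, and their part in these folds was not tested. Without the anti-PD-1 library 134 genes were higher and 144 lower. Without the anti-CTLA-4 library 861 were higher and 736 lower, and without the isotype library 334 and 326.

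**Figure D2:**
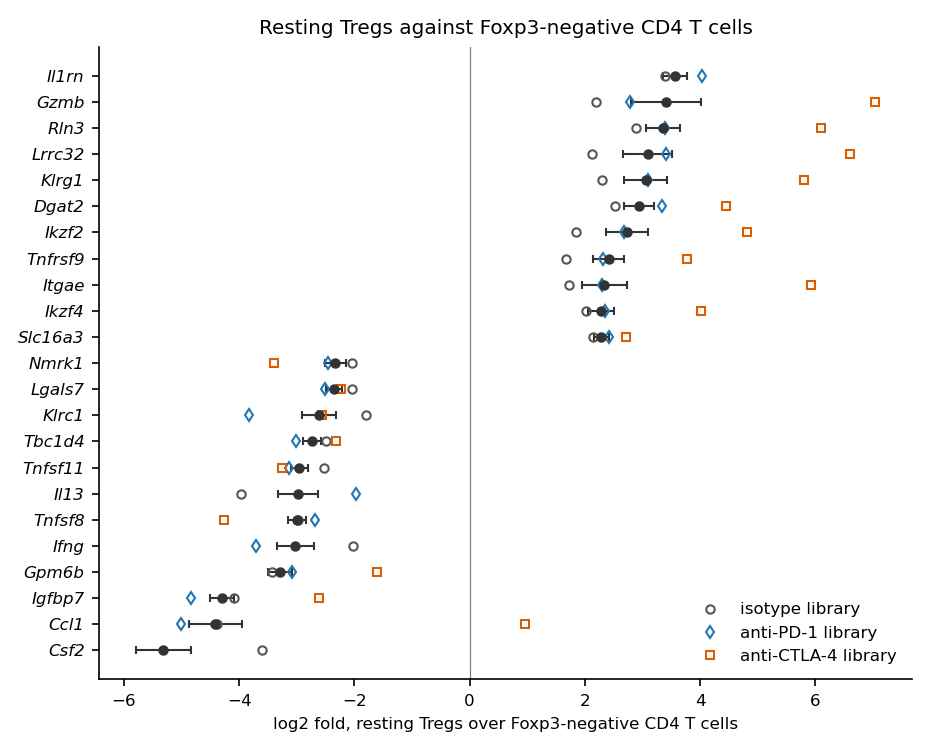
Log2 fold of named genes with the largest rises and falls, resting regulatory T cells over Foxp3-negative CD4 T cells. Filled points with bars are the edgeR estimate ± SE over 3 libraries, and open symbols are the log2 ratios of CPM in each library, left out where a level is 0; the estimates run from 3.56 for Il1rn to -5.32 for Csf2.

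With anti-PD-1, few genes of resting regulatory T cells differed by 2-fold from isotype. A gene was called when its summed level differed by at least 2-fold, the 4 hashtags of one library all lay above those of the other, and the higher library reached 50 CPM. Of 2968 genes tested, 4 (0.135%) were higher and 3 (0.101%) lower, with a median log2 ratio of 0.00 over all genes. Without the limit on fold, hashtags lay apart for 147 genes (4.95%) above isotype and for 211 genes (7.11%) below. Both treatments are read against the same isotype library.

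Lag3, which encodes an inhibitory receptor that binds MHC class II, stood at 336 CPM with isotype and 757 CPM with anti-PD-1 (log2 ratio 1.17). By hashtag it stood at 223, 329, 294.5 and 466 CPM with isotype and at 840, 611, 1040 and 707 CPM with anti-PD-1. All 4 treated hashtags lay above all 4 isotype hashtags. Lag3 also stood higher in Foxp3-negative CD4 T cells, at 511 against 266 CPM. In regulatory T cells of MOC22 tumours it stood at 580 against 177 CPM and in those of MOC1E1 tumours at 397 against 326 CPM.

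Gimap7, a member of a family of lymphocyte GTPases, stood at 140 CPM with isotype and 310 CPM with anti-PD-1 (log2 ratio 1.14). Its hashtags held 142, 144, 133 and 150 CPM with isotype and 360, 253, 267 and 333 CPM with anti-PD-1. The isotype hashtags were close together, and the groups did not overlap. In Foxp3-negative CD4 T cells Gimap7 stood at 59.0 and 55.8 CPM. In regulatory T cells of MOC1E1 it stood at 299 against 204 CPM and in those of MOC22 at 412 against 173 CPM.

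Bnip3, which encodes a mitochondrial protein induced by low oxygen, stood at 59.4 against 134 CPM (log2 ratio 1.18), with hashtags at 53.5 to 69.1 CPM and 122.8 to 171.8 CPM. It was also higher in Foxp3-negative CD4 T cells, at 35.7 against 13.5 CPM. The remaining called gene was a receptor variable segment, Trav21-dv12, at 66.3 against 32.1 CPM. Of the 3 called lower, Cd74 stood at 1423 CPM with isotype and 521 CPM with anti-PD-1 (log2 ratio -1.45). Its hashtags held 1994, 1262, 714 and 1613 CPM with isotype and 352, 699, 428.5 and 561 CPM with anti-PD-1, the closest pair being 714 and 699 CPM. In cells thinned to 2000 UMIs its log2 ratio was -0.54 and by the mean of per-cell CPM -0.83, both under 2-fold. In Foxp3-negative CD4 T cells Cd74 stood at 184 against 530 CPM, and in regulatory T cells of MOC1E1 it went the other way, at 5749 against 2941 CPM.

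The other lower genes rested on few cells. H2-Aa stood at 284 against 21.3 CPM, from 3.9 and 2.32% of the cells, and 1 isotype cell held 257 of its 1634 UMIs. Il1b, the gene of interleukin 1 beta, stood at 78.8 against 2.97 CPM, from 2.3 and 0.258% of the cells. All 4 tested MHC class II genes were lower, 2 of them called, with a median of -2.85, while 0.101% of all tested genes were called lower. The list's summed level ran from 990 to 3424 CPM over the isotype hashtags and from 403 to 1090 CPM over those of anti-PD-1. Macrophage and monocyte markers summed to 5.5 to 46.8 CPM and 0 to 83.4 CPM over the same hashtags, neutrophil markers to 0 to 14.1 CPM and 0, and dendritic cell markers to 0 to 22.7 CPM and 0 to 2.45 CPM. Gamma-delta T cell markers summed to 16.49 to 134.8 CPM and 0 to 8.06 CPM, without overlap. The part of RNA from such cells in these genes was not tested.

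Glycolysis genes formed the list with most hashtag separation. Of 13 tested, 12 lay above 0 and 9 had all treated hashtags above all isotype hashtags, none below, and none was called at 2-fold. Of all tested genes, 4.95% lay above and 7.11% below by all hashtags. The median log2 ratio was 0.46, against 0.00 for all genes, and the list's summed level ran from 10630 to 12040 CPM with isotype and from 14930 to 16370 CPM with anti-PD-1. Gapdh stood at 4022 against 5944 CPM, Ldha, which makes lactate, at 1720 against 2365 CPM, and Tpi1 at 471 against 738 CPM. The lactate transporter gene Slc16a3 held 212, 215, 274 and 224 CPM by hashtag with isotype and 483, 444, 371.5 and 435 CPM with anti-PD-1. In Foxp3-negative CD4 T cells the list had a median of 0.44.

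None of the tested interferon-induced genes was called with anti-PD-1, though most lay above 0. For comparison, 4.95% of all tested genes lay above isotype and 7.11% below by all hashtags. Of 15 tested genes of the type I interferon response 14 lay above 0, 4 with all treated hashtags above and 1 with all below, and the median was 0.30. In Foxp3-negative CD4 T cells the median of the same genes was -0.12. Isg15, a ubiquitin-like interferon-induced protein, held 268.5, 213, 244 and 278 CPM with isotype and 491, 476, 374.5 and 466 CPM with anti-PD-1. Ifi27l2a stood at 2906 against 4404 CPM, without overlap. Of 16 tested interferon gamma-induced genes 14 lay above 0 and 5 had all hashtags above, none below, with a median of 0.27, among them the GTPase genes Gbp2 (116.5 against 163 CPM) and Igtp (302 against 395 CPM).

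Genes of the inhibitory receptor list, PD-1 ligands included, summed to 4438 to 4901 CPM over the isotype hashtags and to 5311 to 6625 CPM over those of anti-PD-1. Of 9 tested, 8 lay above 0 with a median of 0.15, and Lag3, Tigit and Vsir had all hashtags above. All hashtags lay above for 4.95% of all tested genes. Tigit stood at 703 against 863 CPM and Vsir, which encodes VISTA, at 175 against 212 CPM. Pdcd1, the gene of the antibody's target, stood at 293 against 326 CPM with overlapping hashtags, 249 to 337 CPM and 177 to 449 CPM. Ctla4 stood at 2319 against 2801 CPM, also with overlap.

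The regulatory programme differed less. Of its 16 tested identity genes none was called, and the median was 0.11. All hashtags lay above for 3 and below for 1, against 4.95 and 7.11% of all tested genes. Izumo1r stood at 426.5 against 711.5 CPM (363 to 450 and 667 to 918 CPM by hashtag), Tnfrsf18, which encodes the costimulatory receptor GITR, at 1277 against 1466 CPM, and Entpd1, which encodes the ectonucleotidase CD39, at 81.1 against 111 CPM. Il2ra was the gene below. It held 920, 901, 876 and 853.5 CPM by hashtag with isotype and 703, 618.5, 827 and 768 CPM with anti-PD-1, a log2 ratio of -0.26 without overlap. Il7r, the interleukin 7 receptor gene, stood at 416 against 262 CPM (389 to 472.5 and 220 to 319.5 CPM by hashtag). Gzmb, at 1067 against 1516 CPM, and Areg, the gene of the tissue repair factor amphiregulin, at 411 against 827 CPM, overlapped between hashtags. Il13 stood at 16.7 against 150 CPM, but 255 of the 303 treated UMIs came from 1 cell.

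Other lists held no called gene with anti-PD-1. Over all tested genes, hashtags lay apart above isotype for 4.95% and below for 7.11%. Effector and cytotoxic genes had a median of 0.35 over 12 tested, with 2 above by all hashtags, and 0.51 in Foxp3-negative CD4 T cells; Cst7, a protease inhibitor gene, stood at 187 against 291 CPM. Genes of T cell receptor signalling had a median of -0.24, with 10 of 13 below 0 and 2 below by all hashtags. Genes of the interleukin 2 family and STAT5 had -0.12 over 17, with 1 above and 3 below by all hashtags. Suppressive mediators, with 13 tested, had 0.05 and costimulatory receptors, with 8 tested, 0.14.

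**Figure D3:**
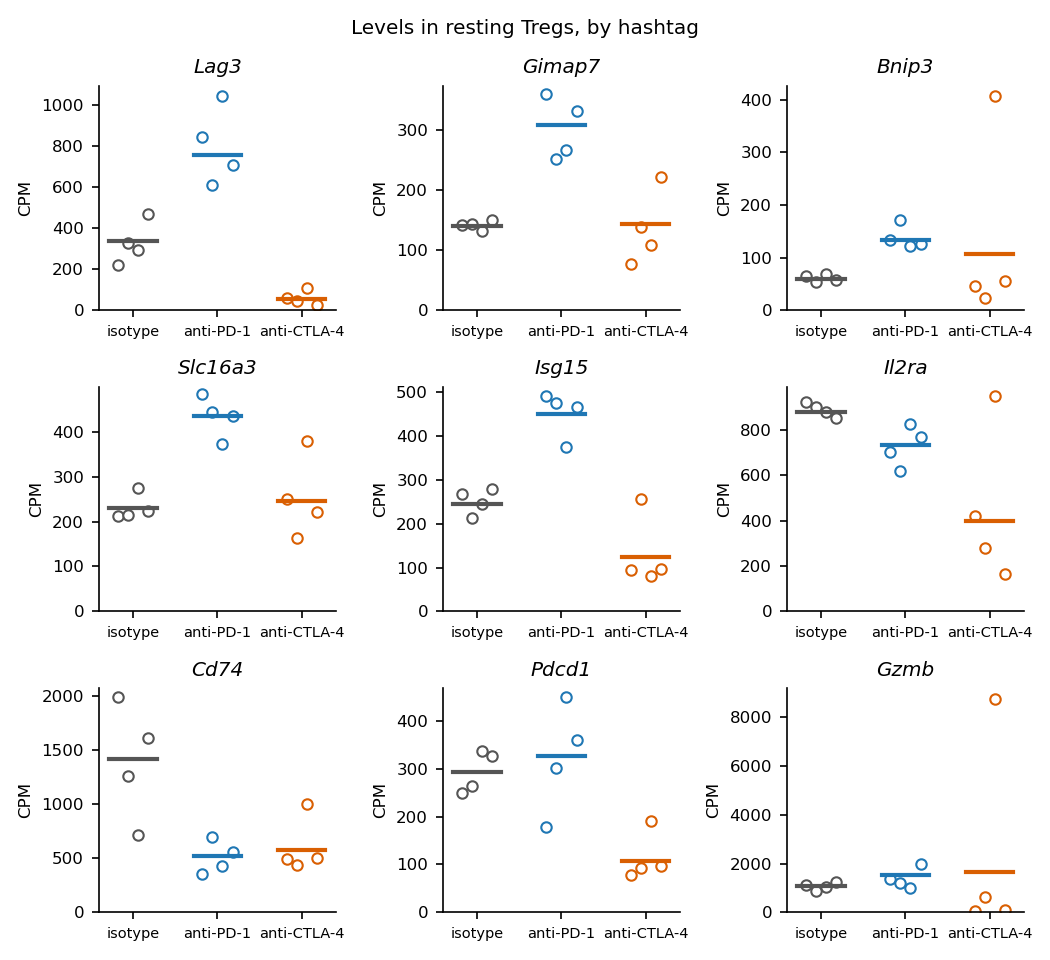
Levels of 9 genes in resting regulatory T cells, in CPM, in the 3 libraries, from left isotype, PD-1 blockade and CTLA-4 blockade. Horizontal lines are library values and open circles the 4 hashtags; Lag3 stands at 336, 757 and 55.5 CPM, and the Gzmb level with anti-CTLA-4 comes from 1 hashtag.

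With anti-CTLA-4 there were 41 cells, split over the hashtags as 11, 10, 7 and 13 cells. Of 3126 genes tested, 21 (0.672%) were called higher and 118 (3.77%) lower than with isotype, and the median log2 ratio over all genes was -0.03. Without the limit on fold, hashtags lay apart for 158 genes (5.05%) above and 277 genes (8.86%) below. Levels of 3 UMIs, 13.9 CPM, were used as the floor for ratios, so for a gene at 0 UMIs the ratio only bounds the difference, and list medians hold such genes at that bound.

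Inhibitory receptor genes were among the lower ones. Lag3 stood at 55.5 CPM (12 UMIs) against 336 CPM, a log2 ratio of -2.60 with a counting interval of -3.55 to -1.79. Its treated hashtags held 62.3, 46.5, 108 and 27.8 CPM, all below the lowest isotype hashtag at 223 CPM. Lag3 also stood lower in Foxp3-negative CD4 T cells, at 70.5 against 266 CPM. In regulatory T cells of MOC1E1 tumours it stood at 377 against 326 CPM, the other way. Pdcd1 stood at 106 CPM (23 UMIs) against 293 CPM, a log2 ratio of -1.46 (interval -2.12 to -0.87). Its treated hashtags held 77.9 to 190 CPM and its isotype hashtags 249 to 337 CPM. Pdcd1 was lower in MOC1E1 as well, at 40.4 against 156 CPM. Ctla4, the gene of the antibody's target, stood at 2604 against 2319 CPM with overlapping hashtags, and Tigit at 796 against 703 CPM with all treated hashtags above. Of 9 tested genes of the inhibitory receptor list 3 were called lower and none higher, against 3.77 and 0.672% of all tested genes. The third, Pdcd1lg2, encodes a ligand of PD-1 and not a receptor, and stood at 32.4 against 72.9 CPM.

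Of the type I interferon response, all 12 tested genes lay below 0, 5 were called and 6 had all treated hashtags below, with a median of -1.105. In Foxp3-negative CD4 T cells the median was -1.09. Of all tested genes, 3.77% were called lower and 8.86% lay below by all hashtags. Isg20, an exonuclease, stood at 60.1 against 199 CPM, Irf7, a transcription factor of the pathway, at 27.8 against 99.3 CPM and Bst2, which encodes tetherin, at 111 against 261 CPM. Over the hashtags the list's sum ran from 4646 to 5813 CPM with isotype and from 2610 to 4811 CPM with anti-CTLA-4, which overlapped. Of 14 tested interferon gamma-induced genes 13 lay below 0 with a median of -0.29, and none was called.

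Other lower genes included Rgs16, a regulator of G protein signals, at 46.3 CPM (10 UMIs) against 287.5 CPM, with hashtags at 0 to 93.0 CPM and 262 to 323 CPM. Nt5e, which encodes the ectonucleotidase CD73, stood at 46.3 against 119 CPM, Penk, the gene of the opioid precursor proenkephalin, at 78.6 against 397 CPM with 15 of its 17 treated UMIs in 1 cell, and Ctsw, a protease gene of cytotoxic cells, at 60.1 against 244 CPM. Il1rn was at 0 UMIs against 95.3 CPM, a log2 ratio of -2.78 or less at the floor, with a UMI in 15.5% of isotype cells. H2-Aa, H2-Eb1, Il1b, Fcer1g, Tff1 and Ccl3 were also at 0 UMIs, and 2.3 to 15.2% of isotype cells held a UMI of each. Ccl4 was at 1 UMI against 205 CPM. The marker sum of macrophages and monocytes was 4.63 against 28.1 CPM and those of neutrophils and dendritic cells were 0. The sum of gamma-delta T cell markers was 4.63 against 60.93 CPM, without overlap of hashtags. The part of RNA from any of these cells in the genes that stood lower was not tested. Ifitm3 (9 UMIs, 41.6 against 224 CPM), Plac8 (3 UMIs, 13.9 against 107 CPM) and Il27ra (3 UMIs, 13.9 against 74.7 CPM) complete the named genes of this side. In Foxp3-negative CD4 T cells Ifitm3 (348 against 198 CPM) and Plac8 (556 against 235.5 CPM) went the other way. Il27ra stood there at 53.0 against 57.7 CPM.

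The programme genes of regulatory T cells were mixed. Of 16 tested identity genes 2 were called lower, Nt5e and Socs2, none higher, and the median was -0.27. Over all tested genes, 3.77% were called lower and 0.672% higher. Ikzf2 stood at 564 against 520 CPM with overlap, and Lrrc32 at 217 against 139 CPM with all treated hashtags above. Il2ra stood at 398 against 878 CPM, but its treated hashtags held 420, 279, 949 and 167 CPM and so overlapped the isotype range of 853.5 to 920 CPM. Tnfrsf9 stood at 1513 against 1975 CPM with treated hashtags at 1510, 651, 4174 and 666 CPM. After thinning to 2000 UMIs, 53.85 to 66.67% of cells by hashtag held a Tnfrsf9 UMI, against 79.07 to 90.73% with isotype, without overlap. The treated hashtags held 6 to 13 such cells each. Gzmb stood at 1670 CPM, of which 320 of 361 UMIs came from 1 cell of the third hashtag. In cells thinned to 2000 UMIs, 16.2% held a Gzmb UMI with anti-CTLA-4, against 53.0% with isotype and 55.3% with anti-PD-1; in Foxp3-negative CD4 T cells the shares were 1.62, 13.5 and 10.2%.

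Suppressive mediators had a median of -0.89 over 13 tested with anti-CTLA-4, 2 of them called lower, and -1.34 in Foxp3-negative CD4 T cells. Tgfb1, the gene of TGF-beta 1, stood at 310 against 585 CPM (209 to 416.5 and 552 to 606 CPM by hashtag). Effector and cytotoxic genes had a median of -0.82, with 3 of 11 called lower, and -0.11 in Foxp3-negative CD4 T cells. The NF-kappaB pathway had -0.30 with 13 of 15 below 0 and none called. Genes of central and naive T cells had -0.05 over 10, against -1.34 in Foxp3-negative CD4 T cells, and Ccr7 stood at 513.5 against 337 CPM with overlap. Glycolysis genes had 0.10, with 2 of 13 below by all hashtags and none above. Over all tested genes, 3.77% were called lower, and 8.86% lay below and 5.05% above by all hashtags.

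The genes called higher had few UMIs with anti-CTLA-4, from 12 for Btaf1 to 73 for Itgb1. Those called lower also had few, from 0 for H2-Aa to 46 for Mxd1. Fam46a, which encodes a poly(A) polymerase-like protein, stood at 296 against 110 CPM (255.7 to 361 CPM in 3 hashtags and 135.5 CPM in the third, against 100.9 to 121.7 CPM). Itgb1, the beta 1 integrin gene, stood at 338 against 167 CPM, with hashtags at 244 to 416.5 CPM and 156 to 179 CPM, and at 678 against 409 CPM in Foxp3-negative CD4 T cells. Gramd3 stood at 162 against 71.4 CPM. Btaf1, Polg2, Fnta, Mrpl39, Gpr18, Oat, Csrp2, Mplkip, Cd320 and Ppp1r10 reached 55.5 to 106 CPM. In cells thinned to 2000 UMIs, 35 genes were called higher, and 2 of them were among the 21.

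**Figure D4:**
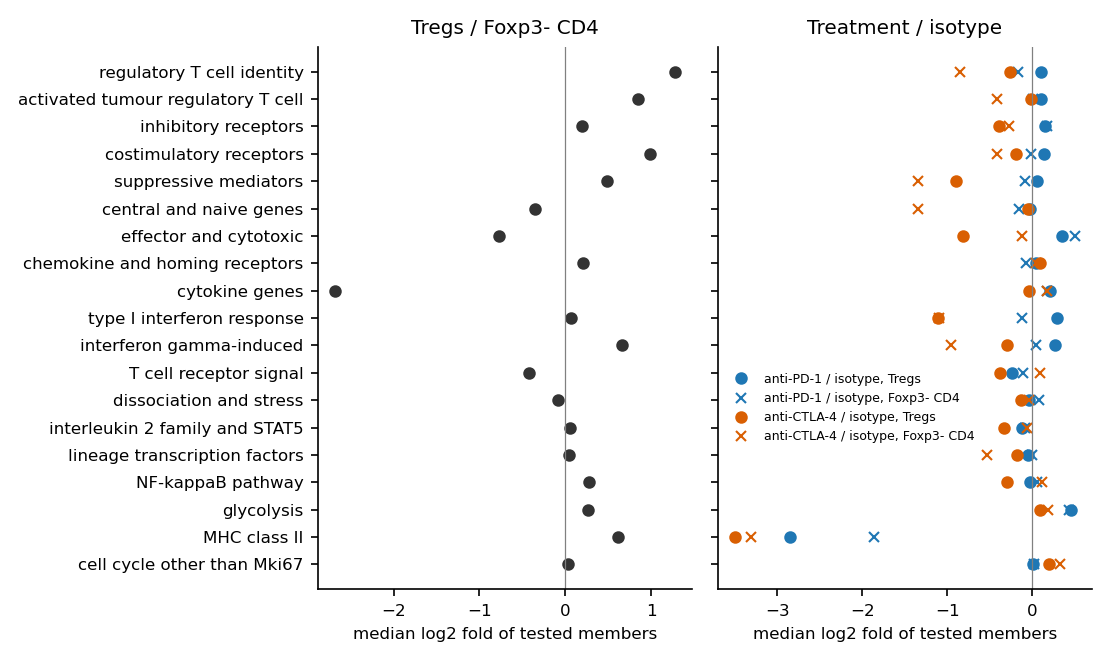
Median log2 fold of the tested genes of 19 lists. The left panel shows resting regulatory T cells over Foxp3-negative CD4 T cells; the right panel shows each treatment over isotype in regulatory T cells (circles) and in Foxp3-negative CD4 T cells (crosses), with type I interferon medians of 0.30 for anti-PD-1 and -1.105 for anti-CTLA-4 in regulatory T cells.

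Within the resting regulatory T cells, the main axis followed the number of UMIs per cell. What sets that number in a cell was not tested. The first principal component of 6826 genes held 1.592% of the variance and correlated at 0.88 with the log of UMIs per cell, over 1428 cells that share libraries. Its ends were led by Ldha, Pfn1 and Cfl1, and by Malat1, Fos and Klf2. The second component held 0.71%, with C1qbp, Srm, Apex1 and Fbl at one end and Laptm5 and Samhd1 at the other.

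Cells with and without a Tnfrsf9 UMI were compared after thinning to 2000 UMIs. With isotype 741 of 890 such cells (83.26%) held a Tnfrsf9 UMI, with anti-PD-1 82.23% did, as did 22 of 37 (59.46%) in the anti-CTLA-4 library. CD8 T cells held one in 17.1, 35.6 and 19.0%. Among isotype cells with Tnfrsf9, 55.2% held Ccr8 and 56.55% Gzmb, against 20.13 and 35.57% of the 149 cells without it. With anti-PD-1 the shares were 61.32 and 59.58% of 287 cells, against 22.58 and 35.48% of 62. Tcf7 went the other way, in 3.51 against 11.41% with isotype and in 2.44 against 9.68% with anti-PD-1. Ccr7 was seen in 19.57 against 18.12% with isotype. Gzmb was also more frequent in isotype cells with Klrg1 (65.03% of 286) than without (47.35% of 604). Ccr8 was seen in 11.4% of thinned isotype CD8 T cells. These are shares of cells within a library and carry no test.

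Receptor clones were read from the matched receptor libraries. Both chains were known for 724 resting regulatory T cells with isotype, 291 under PD-1 blockade and 29 under CTLA-4 blockade. A clone is the set of cells of 1 library with the same productive alpha and beta CDR3 nucleotide sequences, the CDR3 being the part of a receptor chain where V and J segments join. The largest regulatory clone of isotype is shown for its size, with 1 of 3 clones tied at 6 cells and, for anti-PD-1, 1 of 3 tied at 3 cells. Sequences are read from the deposited receptor tables, 5′ to 3′ on the coding strand. Capitals mark the first and the last codon of each CDR3. Alpha chains lie on chromosome 14 and beta chains on chromosome 6.
Isotype clone 1, alpha, TRAV10 with TRAJ45: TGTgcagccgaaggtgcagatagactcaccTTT
Isotype clone 1, beta, TRBV5 with TRBJ2-5: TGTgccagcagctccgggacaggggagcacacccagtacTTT
Isotype clone 2, alpha, TRAV6-3 with TRAJ31: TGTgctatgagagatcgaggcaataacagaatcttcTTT
Isotype clone 2, beta, TRBV17 with TRBJ2-7: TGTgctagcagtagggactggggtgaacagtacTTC
Anti-PD-1 clone 1, alpha, TRAV5-1 with TRAJ27: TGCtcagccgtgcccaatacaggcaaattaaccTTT
Anti-PD-1 clone 1, beta, TRBV19 with TRBJ2-3: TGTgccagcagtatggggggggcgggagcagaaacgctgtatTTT

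Isotype clone 1 held 22 resting regulatory T cells, 21 of them in the fourth hashtag, and 1 Foxp3-negative CD4 T cell. Isotype clone 2 held 6 such cells, all in the third hashtag, with 3 cycling Foxp3 cells and 2 Foxp3 cells with CD8 UMIs. Anti-PD-1 clone 1 held 3 cells, all in the third hashtag, and no clone of that library was larger. Of clones of 2 or more cells, 45 of 46 with isotype and 17 of 17 with anti-PD-1 lay within 1 hashtag.

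Of resting regulatory T cells, 18.09% (131 of 724, exact interval 15.36 to 21.1%) lay in clones of 2 or more with isotype and 12.71% (37 of 291, 9.11 to 17.1%) with anti-PD-1. With anti-CTLA-4 it was 0 of 29, with an exact upper bound of 11.94%. By hashtag the shares were 13.21, 18.67, 15.89 and 22.02% with isotype and 8.20, 10, 22.45 and 11.4% with anti-PD-1, which overlapped. The number of cells sets how many repeats can be seen, and at the cell number of anti-PD-1 the isotype share was 11.09%, below the 12.71% of anti-PD-1 and within its interval. CD8 T cells of the same libraries lay in such clones in 30.09, 61.49 and 63.75% of cells and Foxp3-negative CD4 T cells in 21.16, 24.23 and 40.91%. The shares of the different cell types rest on different cell numbers and were not compared by a test.

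Regulatory clones were shared with other Foxp3 cells and with Foxp3-negative CD4 T cells. Regulatory T cells without a captured Foxp3 transcript would be counted among the Foxp3-negative cells, and their part in the shared clones was not tested. Of 639 clones with isotype, 25 (3.912%, and 15.62% of the clones of cycling Foxp3 cells) occurred also in cycling Foxp3 cells. A further 22, counted separately (3.443%, and 5.19% of theirs), occurred also in Foxp3-negative CD4 T cells. Of 271 clones with anti-PD-1, 4 (1.476 and 8.89%) and 7 (2.583 and 1.804%) did. None of the 639, 271 and 29 clones occurred in CD8 T cells, which, at a limit of 3 clones, allows shares of up to 0.4695, 1.107 and 10.34%. Cells with 2 productive beta chains, which can be doublets, were 18.23, 15.46 and 13.79% of resting regulatory T cells with both chains, against 6.64, 5.95 and 4.15% of Foxp3-negative CD4 T cells and 45.6, 43.69 and 45.57% of Foxp3 cells with CD8 UMIs.

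The largest clone had a profile of its own, described here for its 22 cells, 21 of them in the fourth isotype hashtag. They are set against the 276 other resting regulatory T cells of that hashtag. Gzmb reached 5064 CPM in the clone and 1036 CPM in the others, with a UMI in 21 of 22 clone cells. Lag3 reached 1831 and 394 CPM, and Ctla4 5138 and 2087 CPM. Ccl4, a chemokine gene, reached 2335 CPM in the clone and 293 CPM in the others, and Csf1, a macrophage growth factor, 442.5 and 42.9 CPM. Foxp3 stood at 823.5 against 632 CPM and Il2ra at 873 against 851 CPM. Cd74 stood at 98.3 against 1691 CPM, Ccr7 at 49.2 against 337 CPM, Il7r at 160 against 426 CPM and Ikzf2 at 270 against 499 CPM. These genes were named after their values were seen.

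**Figure D5:**
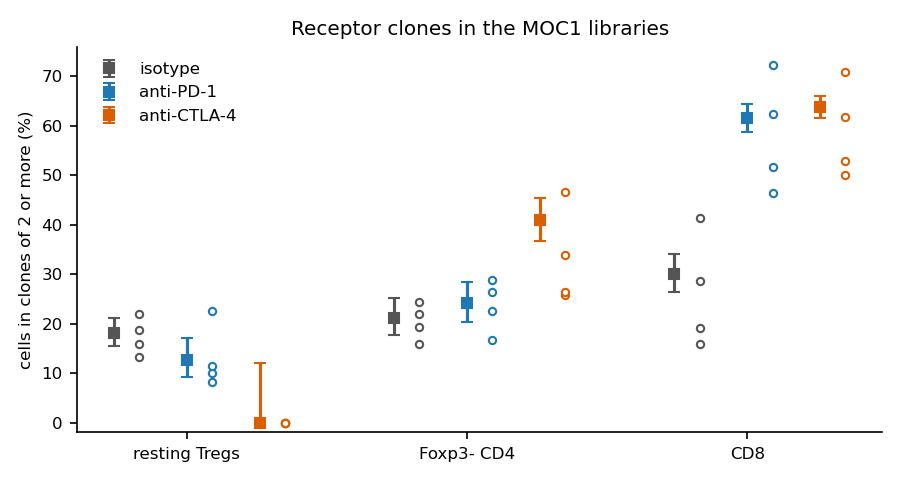
Share of cells with both receptor chains that lie in clones of 2 or more, in percent, for resting regulatory T cells, Foxp3-negative CD4 T cells and CD8 T cells. Squares with bars are library values with exact 95% binomial intervals and open circles the 4 hashtags; regulatory T cells lie at 18.09, 12.71 and 0% and CD8 T cells at 30.09, 61.49 and 63.75%.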

How the data were processed

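Tumour-infiltrating cells were profiled with the 10x 5' gene expression and V(D)J kits, per the labels' protocols. Each deposited matrix gives UMI counts, whole and not normalized, for genes and hashtags in every barcode. Cell Ranger 3.0.2 stands in the submitters' processing notes, as do the builds mm10 and GRCh38 without their roles. Receptor tables deposited by the authors list the assembled chains of a barcode with their segments and CDR3. Bulk RNA, exome and other tables were not used here.

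T cells were cells past the filters with a Cd3e, Cd3d or Cd3g UMI. A cell was given the hashtag whose count plus 1, over the tag's median plus 1, was highest, was at least 4 and exceeded the next by 3 times; 1385 of the chosen cells had 1 tag. Doublets were removed only in an alternative (scrublet in scanpy 1.11.5, expected rate 0.06, the top 0.8% per 1000 cells). Levels (CPM) are summed UMIs per 1000000, with ratios floored at 3 UMIs. Genes with enough counts were fitted with edgeR 4.0.16 in R 4.3.3 on 6 sums, with the library as a block because both cell groups of a treatment come from 1 library; DESeq2 1.42.0 was an alternative. The 12 largest called rises and falls of each comparison are named, apart from items that are not reported here, with up to 4 genes per list of largest absolute ratio; receptor segments, ribosomal, mitochondrial and unnamed gene models were left out of the rule. Further genes are named after their values were seen. The fits were tested on simulated data. The selection, its comparisons and the gene lists were chosen with earlier results of these data known. Intervals are exact at 95% and cover counting error only. Shares and folds between treatments rest on 1 library each.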

Additional observations from a re-analysis of the deposited data

Results flagged for a closer look

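In 63 sets of 4 hashtags the highest or lowest hashtag was compared with the others. The sets were shares of cells, shares in clones, and levels of genes named in the report. Gene levels with anti-CTLA-4 were left out, since few UMIs lay behind most of them. Chance alone sets about 1 in 20 apart. In 4 sets a hashtag stood apart by Dixon's critical value for 4 samples. H2-Aa stood at 85.9 CPM in the second anti-PD-1 hashtag, against 0 to 12 CPM in the others. Il1b stood at 108.6 CPM in the first isotype hashtag, against 45.8 to 47.3 CPM, and at 14.73 CPM in the second anti-PD-1 hashtag, against 0. Il9, the gene of interleukin 9, stood at 549.2 CPM in the fourth isotype hashtag. There 1 chosen cell of 15820 UMIs held 888 of the 889 Il9 UMIs of that library, 5.61% of its transcripts, so no fold is given.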

How the results depend on the processing

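Both treated shares stayed below isotype in every alternative run. The difference in share of T cells, -11.11 points for anti-PD-1, was -7.243 with at least 2 Foxp3 UMIs, -15.89 within CD4 cells and -16.7 with CD8 and cycling cells kept, and leaving out a hashtag gave -13.04 to -9.848. For anti-CTLA-4, -20.86 points became -14.63, -45.97 and -32.38, -19.13 in thinned cells, and -21.73 to -20.1 without a hashtag. The 4 genes higher with anti-PD-1 became 7 without cells of 2 beta chains (chosen after seeing the data), 35 with no minimum CPM and 5 to 9 without a hashtag (9 without hashtag 4 of anti-PD-1). The 3 lower became 9 in thinned cells, 1 by per-cell means, 106 with no minimum and 3 to 9 (9 without hashtag 3 of isotype). The 21 higher with anti-CTLA-4 became 35, 36 and 37 under those same settings and 21 to 51 without a hashtag, the most without hashtag 3 of anti-CTLA-4. The 118 lower became 239 with no minimum and 117 to 197 (197 without hashtag 4 of anti-CTLA-4). In thinned cells Fcer1g (0.77) and Il1b (1.88) reversed with anti-CTLA-4, since each is at 0 UMIs there and the floor of 3 UMIs over 37 thinned cells lies above the isotype level. The clone share with isotype, 18.09%, was 24.39% by beta chain alone, 22.32% without cells of 2 beta chains or several hashtags, 2.78% at the cell number of the smallest library, 11.09% at that of anti-PD-1 (added after seeing the data) and 16.21 to 18.77% without a hashtag. With anti-PD-1, 12.71% became 17.21, 1.498 and 10.74 to 13.91%. Against Foxp3-negative CD4 T cells, 576 higher and 558 lower genes became 327 and 363 in thinned cells, 282 and 240 with no replicate block (the library being the pair), and 302 and 275 by DESeq2. Without 1 library they ranged from 134 to 861 and from 144 to 736. Itgae was lost with no replicate block and by DESeq2, Ccl1 by DESeq2 and Il13 with no replicate block. Depth limits the 41 anti-CTLA-4 cells most, where 1 UMI is 4.63 CPM.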
